A study of Mus musculus with 4 samples.

Results

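The thin filament of quadriceps muscle was followed through 10 genes, Tnnt1, Tnnt2, Tnnt3, Tnni1, Tnni2, Tnnc1, Tnnc2, Tpm1, Tpm2 and Tpm3, which encode troponin and tropomyosin isoforms. They were taken by gene symbol from a table of 23482 genes, all 10 were listed, and all 10 were among the 10015 genes tested. Total RNA of FVB/N quadriceps was sequenced at an age of 6 to 8 weeks. The control group, which was non-transgenic, had 2 libraries, and the group with Thbs1 overexpression also had 2 and carried a transgene for the secreted matricellular protein thrombospondin-1. The comparison asks what overexpressing Thbs1 does to the muscle transcriptome. The labels give neither the promoter of the transgene nor whether separate mice gave the libraries of each group, so p-values measure only the spread between these libraries, which may be technical.

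Troponin is a complex of 3 subunits that switches muscle contraction on and off. Troponin C binds calcium, troponin I blocks the actin and myosin interaction at rest, and troponin T holds the complex on tropomyosin, a coiled coil that lies along the actin filament. Fast fibres use Tnnt3, Tnni2 and Tnnc2, and slow fibres use Tnnt1, Tnni1, Tnnc1 and the muscle form of Tpm3. Tpm1 is the main tropomyosin of fast fibres and heart, Tpm2 is found in both fibre types, and Tnnt2 is the troponin T of the heart, which skeletal muscle uses during development.

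Thbs1 was at 8.61 and 12.2 RPKM (reads scaled to gene model length and library size) in the controls and at 12900 and 15411 RPKM in the transgenics. It took 12.0% and 14.4% of the reads of the transgenic libraries, which lowers the RPKM of every other gene there. The libraries held 18815221 to 20053685 reads in genes. Fast skeletal markers defined the tissue in all 4 libraries, with Myh4, the fastest myosin heavy chain, at 2483 to 5045 RPKM. In bulk muscle, fewer fibres of a type and less RNA per fibre cannot be told apart. Transgenic library 2 stood apart from the other 3 libraries for several slow fibre genes but not all, and transgenic library 1 for adipocyte genes.

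The stretches before a RefSeq transcript start of 5 of the genes are shown because their transcripts divide into 3 patterns. The slow isoform genes Tnnt1, Tnni1 and Tnnc1 were lowest in transgenic library 2, the fast isoform gene Tnnc2 was lower in both transgenic libraries, and Tnnt2 was higher in both. Each run holds bases 250 to 31 before that start, the outermost where RefSeq lists more than 1, 5′ to 3′ on the strand of the gene, from RefSeq on GRCm38.p6, and capitals mark the E-box letters CANNTG, to which myogenic factors such as MyoD bind. The stretches lie at chr7:4516006-4516225 on the reverse strand for Tnnt1, chr1:135799171-135799390 on the forward strand for Tnni1, chr14:31208062-31208281 on the forward strand for Tnnc1, chr2:164779765-164779984 on the reverse strand for Tnnc2 and chr1:135836084-135836303 on the forward strand for Tnnt2.
Tnnt1: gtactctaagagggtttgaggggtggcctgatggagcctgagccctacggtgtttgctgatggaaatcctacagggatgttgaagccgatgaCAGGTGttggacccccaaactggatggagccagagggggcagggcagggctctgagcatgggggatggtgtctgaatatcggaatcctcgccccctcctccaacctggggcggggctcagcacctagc
Tnni1: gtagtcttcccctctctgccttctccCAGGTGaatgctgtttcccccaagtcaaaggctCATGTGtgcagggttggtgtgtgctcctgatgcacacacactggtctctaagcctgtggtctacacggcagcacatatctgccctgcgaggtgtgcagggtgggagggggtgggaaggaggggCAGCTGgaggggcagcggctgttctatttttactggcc
Tnnc1: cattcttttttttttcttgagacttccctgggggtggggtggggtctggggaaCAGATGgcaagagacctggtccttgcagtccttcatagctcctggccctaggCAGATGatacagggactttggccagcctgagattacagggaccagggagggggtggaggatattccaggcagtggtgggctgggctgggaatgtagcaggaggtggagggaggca
Tnnc2: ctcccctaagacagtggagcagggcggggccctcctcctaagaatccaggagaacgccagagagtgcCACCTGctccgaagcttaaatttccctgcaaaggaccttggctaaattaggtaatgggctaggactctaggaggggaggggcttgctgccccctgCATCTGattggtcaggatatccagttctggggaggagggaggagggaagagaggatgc
Tnnt2: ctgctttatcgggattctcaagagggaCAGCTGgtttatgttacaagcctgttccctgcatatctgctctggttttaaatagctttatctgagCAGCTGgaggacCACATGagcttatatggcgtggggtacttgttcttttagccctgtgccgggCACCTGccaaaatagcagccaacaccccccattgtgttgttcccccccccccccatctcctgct

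In GENCODE M21 some transcripts open further out than these RefSeq starts. All 220 bases of the stretches of Tnnt1 and Tnni1 and 203 of those of Tnnc2 therefore lie inside the annotated gene. Of the Tnnc2 stretch 100 bases are in an exon of a non-coding transcript of that gene, and the other stretches overlap no exon of their gene. The stretches of Tnnc1 and Tnnt2 lie outside the annotated gene.

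The E-box letters, which read the same on both strands, occurred 1 time in the stretch of Tnnt1, 3 times in Tnni1, 2 times in Tnnc1, 2 times in Tnnc2 and 4 times in Tnnt2. Among all 32851 RefSeq promoter windows of the same length, 62.1% held at least 1, so their presence does not set these genes apart. The MCAT letters CATTCC, searched on both strands, occurred in Tnnc1 at bases 58 to 53 before the start and in Tpm1 at bases 56 to 51, and in 11.4% of all windows. No MCAT match overlapped an E-box. The MEF2 site, the CArG box and the letters TATAAA were also searched on both strands. They had 0 matches in the windows of the 8 genes with an entry, and were held by 2.6%, 1.3% and 9.95% of all windows. The windows end at base 31 before the start, so matches nearer to it, also of TATAAA, could not be found. Tnni2 and Tnnt3 had no entry.

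Of the 10 genes 4 form neighbouring pairs and the others lie apart. In GENCODE M21 on GRCm38, Tnni1 occupies 135779434 to 135810989 of chromosome 1 and Tnnt2 follows 25364 bases on, at 135836354 to 135852260. Tnni2, at 142441808 to 142444410 of chromosome 7, is followed by Tnnt3 54425 bases on, at 142498836 to 142516009. Tnnt1 lies on the same chromosome at 4504570 to 4516382. Tnnc1 is at 31208312 to 31211729 of chromosome 14 and Tnnc2 at 164777161 to 164779967 of chromosome 2. The tropomyosin genes are at 67022590 to 67049406 of chromosome 9 for Tpm1, 43514711 to 43523765 of chromosome 4 for Tpm2 and 90072649 to 90100902 of chromosome 3 for Tpm3. Exons of Tnnc2 overlap those of Ube2c on the opposite strand, and no other member shares exonic sequence with another annotated gene.

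In the test over all genes, 0 of the 10 members passed an adjusted p of 0.05 (limma), against 7.47% of all genes tested, 6.25% higher and 1.22% lower. Members with an unadjusted p under 0.05 numbered 5, against 27.9% of tested genes. At an adjusted p under 0.1 there were 4 members, 3 lower (Tpm1, Tnnt3 and Tnnc2) and 1 higher (Tnnt2), while 4.01% of tested genes were lower and 13.0% higher at that level. By limma-voom on reads recovered from the deposited values, 1 member passed 0.05, Tnnt2, which was higher, against 10.3% of tested genes in either direction and 5.64% higher. The transgenic libraries lay below both controls for 4 members, against 19.7% of tested genes, and above both controls for 2, against 38.4%. For the other 4 members, all slow isoforms, the groups overlapped.

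**Figure D1:**
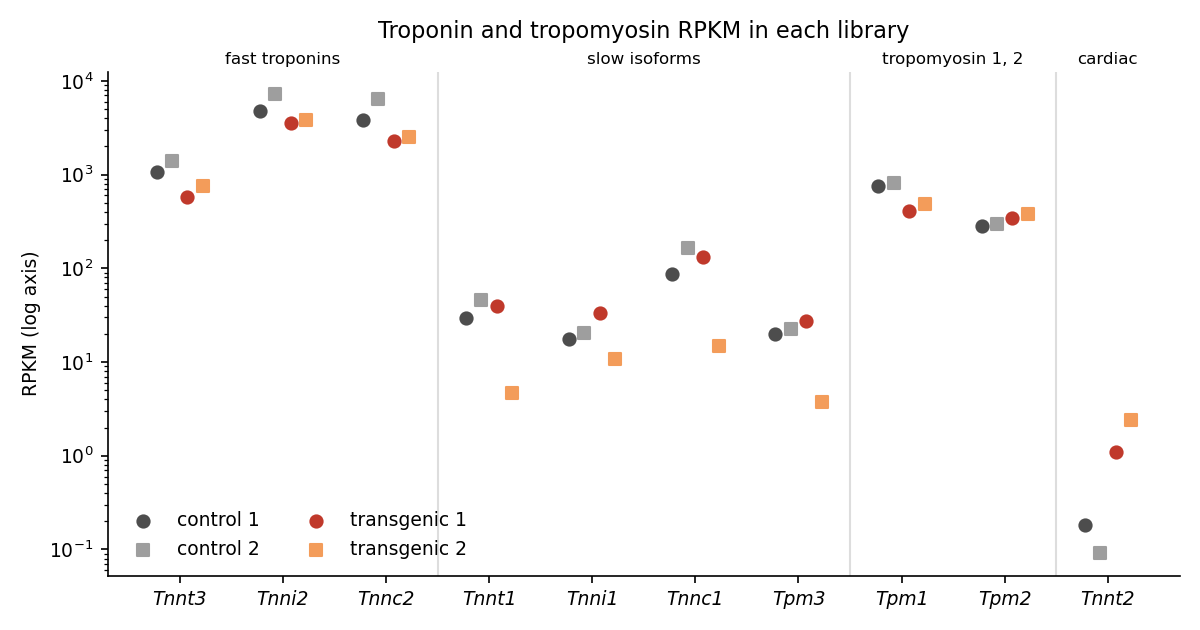
RPKM on a log axis of the 10 genes in each of the 4 libraries, 1 point per library, with circles for library 1 and squares for library 2 of each group. Both transgenic points lie below both controls for the 3 fast troponins and Tpm1, while for the 4 slow isoforms only transgenic library 2 lies below the other libraries.

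All 3 fast troponins were lower in both transgenic libraries than in either control, by group means 1.63-fold to 2.15-fold apart, and none passed an adjusted p of 0.05. Tnnt3, fast troponin T, measured 1078 and 1407 RPKM in the controls and 577 and 751 RPKM in the transgenics. The groups did not overlap, and the controls were 1.31-fold apart. On the log2(RPKM + 1) scale, transgenic minus control, Tnnt3 differed by -0.90 with an SE of 0.24 (n = 2 per group), and its limma adjusted p was 0.0866.

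Tnni2, the fast inhibitory subunit, was at 4806 and 7155 RPKM without the transgene and 3513 and 3804 RPKM in the transgenics. The transgenic libraries were close to each other and the controls were 1.49-fold apart. The log2 fold change of Tnni2 was -0.68 (SE 0.27, limma adjusted p = 0.176). Tnnc2, the fast calcium sensor, was at 3843 and 6397 RPKM in control muscle and at 2266 and 2495 RPKM in the transgenics. Control library 2 was 1.66-fold above control library 1 for this gene, and both transgenic libraries lay below either control. The log2 fold change of Tnnc2 was -1.06 (SE 0.30, limma adjusted p = 0.0953). Without control library 1 it was -1.43, and without control library 2 it was -0.69. In such fits the lone control is assumed to vary like the transgenic libraries.

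Control library 2 was above control library 1 for all 3 fast troponins, and the size of the difference between groups therefore depends on which control is used. With median-of-ratios scaling the log2 fold changes of Tnnt3, Tnni2 and Tnnc2 were -1.09, -0.87 and -1.25, and without Thbs1 in the library sizes they were -0.70, -0.48 and -0.86. Over the 10015 tested genes the log2 fold change had a median of 0.10, and these scalings put it at -0.04 and 0.26. All 3 were negative, and below the median of all genes, under each scaling.

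Tropomyosin went with the fast troponins for Tpm1 but not for Tpm2. Tpm1, alpha-tropomyosin, measured 758 and 817 RPKM in the controls and 405 and 491 RPKM in the transgenics. The replicates of each group lay close together and the groups were well apart, with a control mean 1.76-fold the transgenic mean. The log2 fold change of Tpm1 was -0.82 (SE 0.19, limma adjusted p = 0.0682), and it was the lower member nearest to the threshold. The authors' deposited table gives Tpm1 an adjusted p of 0.00095, Tnnt3 0.0801 and Tnnt2 0.0805, and these 3 members are under 0.1 there, against 9.20% of the genes with a deposited p-value.

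Tpm2, beta-tropomyosin, was at 286 and 296 RPKM without the transgene and 341 and 383 RPKM in the transgenics. Both transgenic libraries were above both controls, by a ratio of group means of 1.24. The log2 fold change of Tpm2 was 0.31 (SE 0.17, limma adjusted p = 0.309), and 0.13 with median-of-ratios scaling (adjusted p = 0.765). It was positive and above the median of all tested genes under each scaling.

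Each RPKM sums all transcripts of a gene, so the splice forms of Tpm1, Tpm3 and Tnnt3 and the non-muscle forms of Tpm1 and Tpm3 were not separated.

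**Figure D2:**
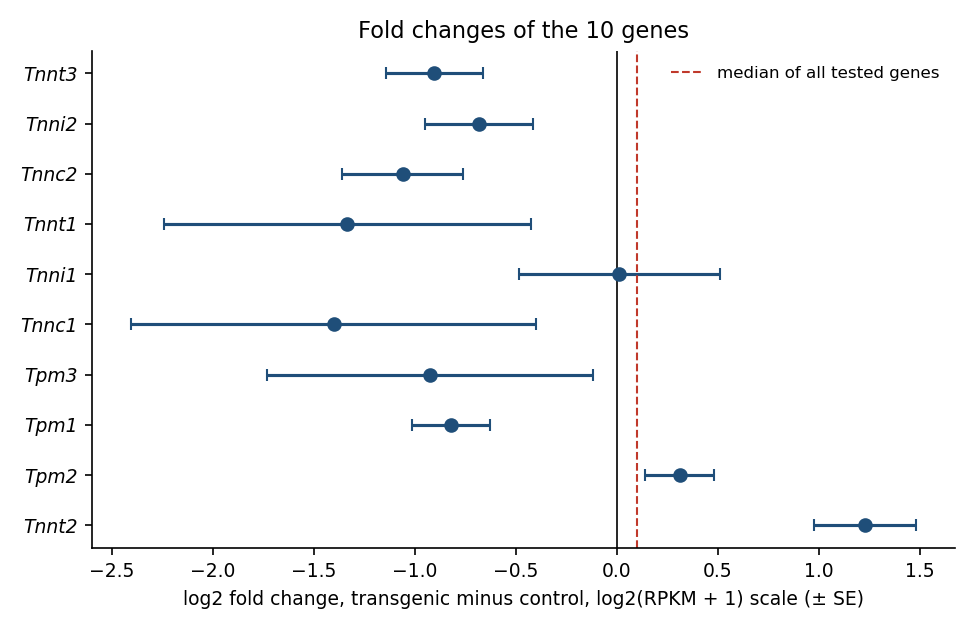
Log2 fold change of each gene on the log2(RPKM + 1) scale, transgenic minus control, with the limma standard error as bars, n = 2 libraries per group, and the median of all tested genes as a dashed line. The fast troponins and Tpm1 have short bars below 0, the slow isoforms have longer bars, the shortest of these for Tnni1, and Tnnt2 lies at 1.23.

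The slow isoforms did not divide by group but by library. Transgenic library 2 was lowest of the 4 libraries for all 4, while transgenic library 1 was within the range of the controls or above it. Tnnt1, slow troponin T, was at 29.5 and 46.3 RPKM in the controls, 39.3 RPKM in transgenic library 1 and 4.65 RPKM in transgenic library 2, from 496 to 4695 reads. The transgenic libraries were 8.46-fold apart, and the controls 1.57-fold. Tnnc1, the troponin C of slow fibres and heart, was at 86.9 and 165 RPKM in control muscle and at 132 and 14.7 RPKM in the transgenics, which were 8.97-fold apart. Tpm3, the slow tropomyosin gene, measured 19.8 and 22.3 RPKM in the controls and 27.2 and 3.75 RPKM in the transgenics, 7.26-fold apart.

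Tnni1, the slow inhibitory subunit, had a smaller gap. It was at 17.6 and 20.6 RPKM in the controls, 33.3 RPKM in transgenic library 1 and 10.9 RPKM in transgenic library 2, 3.06-fold apart. The transgenic libraries lay on either side of the controls. Transgenic library 2 was at least 2-fold below transgenic library 1 for 4 of the 10 members, which were these 4, against 4.06% of tested genes, and at least 2-fold above it for 1 member, Tnnt2, against 0.579%.

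The log2 fold changes of Tnnt1, Tnnc1, Tpm3 and Tnni1 were -1.33, -1.40, -0.93 and 0.01, with SE of 0.91, 1.0, 0.81 and 0.50. Their limma adjusted p were 0.401, 0.425, 0.511 and 0.991. Without transgenic library 2 the log2 fold changes of Tnnt1, Tnnc1, Tpm3 and Tnni1 were 0.08, 0.14, 0.36 and 0.78. Without transgenic library 1 they were -2.75, -2.94, -2.21 and -0.75. In that fit Tnnt1, Tnnc1 and Tpm3 passed the threshold (limma adjusted p = 0.000494, 0.000969 and 0.000604), against 5.54% of the genes tested there, or 1.67% lower, and the lone transgenic library is assumed to vary like the controls. The mean of the 2 transgenic libraries is thus not a level that either library had.

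The ratio of slow to fast isoform within a library does not depend on how the library is scaled. On the log2 RPKM scale, the ratio of Tnnt1 to Tnnt3 was -5.19 and -4.92 in the controls, -3.88 in transgenic library 1 and -7.34 in transgenic library 2. For Tnnc1 to Tnnc2 the ratios were -5.47, -5.28, -4.10 and -7.40 in the same order, and for Tpm3 to the sum of Tpm1 and Tpm2 they were -5.72, -5.64, -4.78 and -7.87. In these 3 families the controls lay between the transgenic libraries, with the ratio highest in transgenic library 1 and lowest in transgenic library 2. For Tnni1 to Tnni2 the ratios were -8.10 and -8.44 in the controls, -6.72 in transgenic library 1 and -8.45 in transgenic library 2, so that transgenic library 2 was level with control library 2. With 2 libraries against 2, an exact permutation test cannot give a two-sided p below 0.333, and these ratios are a description.

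**Figure D3:**
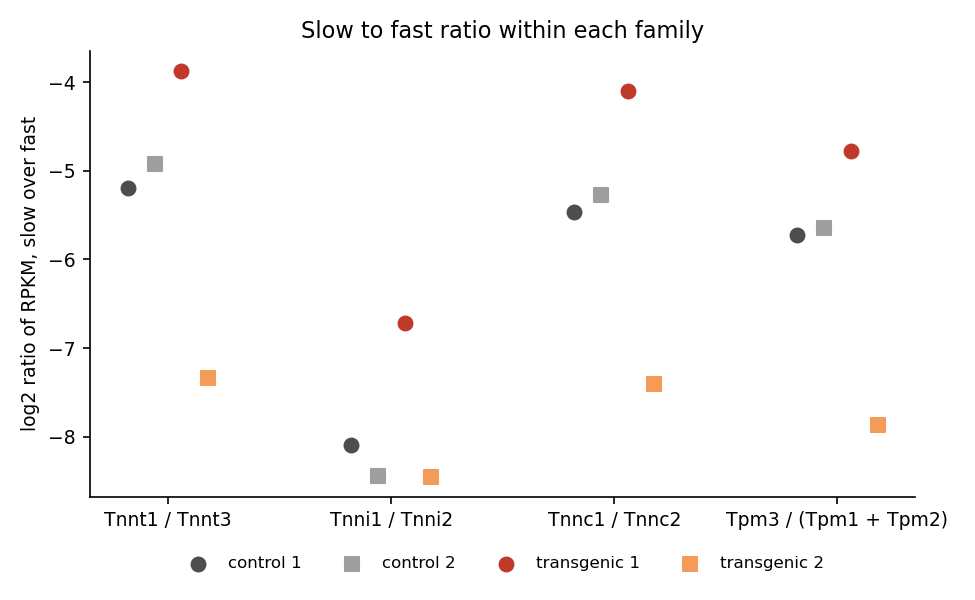
Log2 ratio of RPKM, slow isoform over fast, in each of the 4 libraries for troponin T, I, C and tropomyosin, 1 point per library. In troponin T, troponin C and tropomyosin the 2 controls lie between transgenic library 1 above and transgenic library 2 below, and in troponin I transgenic library 2 lies beside control library 2 at -8.45 and -8.44.

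Several other slow fibre genes followed the same library. Of 10 genes of slow fibres outside the thin filament 9 were tested and 0 passed by limma or limma-voom, with 1 at an unadjusted p under 0.05. Transgenic library 2 was at least 2-fold below transgenic library 1 for 6 of them, against 4.06% of tested genes. The median difference between these libraries was -1.31 on the log2(RPKM + 1) scale, against -0.09 over all tested genes. Myh7, the slow myosin heavy chain, was at 66.6 and 71.1 RPKM without the transgene and 68.4 and 1.14 RPKM in the transgenics. Myl3, a slow and ventricular myosin light chain, was at 114 and 273 RPKM in control muscle and at 144 and 1.73 RPKM in the transgenics. Myl2, the regulatory light chain of slow fibres, measured 114 and 193 RPKM in the controls and 140 and 9.23 RPKM in the transgenics. The gap between the transgenic libraries was thus wider for Myh7, Myl3 and Myl2 than for any slow troponin. Fhl2 was at 0.879 and 0.376 RPKM without the transgene and 3.05 and 1.70 RPKM in the transgenics (log2 fold change 1.04, adjusted p = 0.0778). It passed the filter of 1 RPKM in 2 libraries only through the transgenic libraries, where it is high.

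Of the cardiomyocyte markers, 1 of 6 was tested, Myh6, which lies beside Myh7 and resembles it, at 10.6 and 14.2 RPKM in the controls and at 11.7 and 0.436 RPKM in the transgenics. Mybpc3 and Myl7, found in heart, were listed at 0 in all 4 libraries, and Nppa and Nppb reached at most 0.0439 RPKM. Adipocyte markers differed between the transgenic libraries as well. Their summed level was 118 and 144 RPKM in the controls, 936 RPKM in transgenic library 1 and 103 RPKM in transgenic library 2, and 4 of 4 tested markers were at least 2-fold lower in transgenic library 2. Smooth muscle and pericyte markers summed to 86.6 and 74.0 RPKM in the controls and to 91.7 and 59.0 RPKM in the transgenics, with 0 of 8 tested markers past the test by limma or limma-voom and 1 at an unadjusted p under 0.05. The part of fat or vessels in the values of the slow isoforms was not tested.

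Fast fibre genes outside the thin filament were lower in both transgenic libraries in most cases. Of 11 such genes 10 lay below both controls in both transgenic libraries and 1 above, Myh1, chosen after its values were seen, against 19.7% of tested genes below and 38.4% above. For Myh2, chosen in the same way, transgenic library 1 was below control library 1 only by 507.6 against 507.7 RPKM. The median log2 fold change was -0.61, against 0.10 for all tested genes. By limma 1 gene fell, Atp2a1, the fast calcium pump, against 1.22% of tested genes. By limma-voom 2 fell, Atp2a1 and Actn3 (adjusted p = 0.0305 and 0.0401), against 469 lower among all 10015 tested genes. Myh4 was at 4494 and 5045 RPKM in control muscle and at 2483 and 2953 RPKM in the transgenics (log2 fold change -0.81, adjusted p = 0.0834). Actn3, the fast alpha-actinin of the Z-disc, had a log2 fold change of -1.06 (adjusted p = 0.0563) and Myoz1, another Z-disc protein, -0.79 (adjusted p = 0.0856). The fast troponins, with a median log2 fold change of -0.90, were in the range of these genes. Atp2a1 measured 5904 and 5714 RPKM in the controls and 2213 and 2927 RPKM in the transgenics (log2 fold change -1.19, adjusted p = 0.0458). Leaving out control library 1, control library 2 or transgenic library 1 ended its call (adjusted p = 0.0846, 0.137 and 0.173), and its adjusted p ran from 0.0305 to 0.229 over all alternatives.

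**Figure D4:**
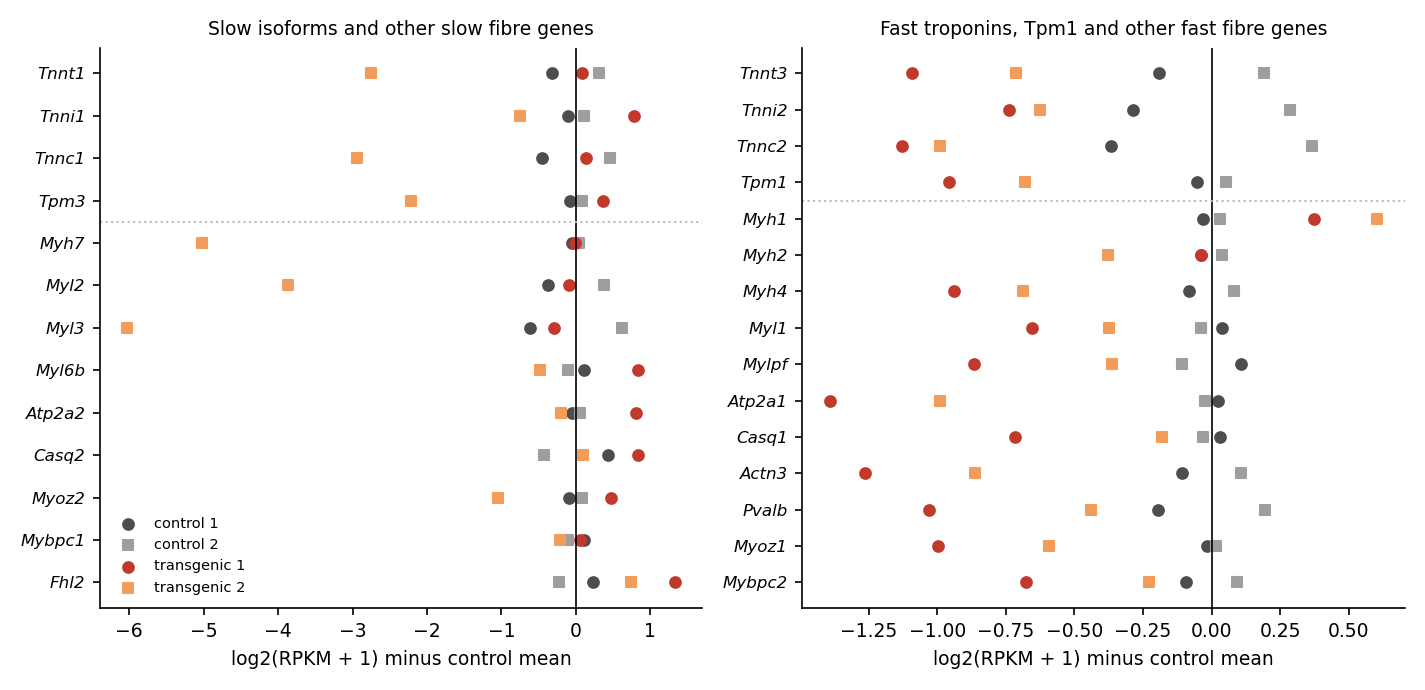
Log2(RPKM + 1) of each gene minus its control mean, 1 point per library, for slow isoforms with other slow fibre genes on the left and for fast troponins, Tpm1 and other fast fibre genes on the right, with the members above the dotted line. On the left, transgenic library 2 lies far below the other 3 libraries for Tnnt1, Tnnc1, Tpm3, Myh7, Myl2 and Myl3, and on the right, both transgenic libraries lie below the controls for all genes drawn except Myh1 above and Myh2, where transgenic library 1 meets the lower control.

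Tnnt2, cardiac troponin T, was the member with the largest ratio of group means. It was at 0.184 and 0.0922 RPKM without the transgene and 1.10 and 2.38 RPKM in the transgenics, from 68, 33, 418 and 898 reads. Both transgenic libraries were above both controls, and the ratio of the group means was 12.6. The log2 fold change of Tnnt2 was 1.23 with an SE of 0.25 and a limma adjusted p of 0.0518, and the pseudocount of 1 shrinks it at these levels. With a pseudocount of 0.1 it was 2.88 (adjusted p = 0.0458), and by limma-voom on recovered reads 3.40 (adjusted p = 0.0425). Tnnt2 did not pass with no filter on low values, a replicate block or median-of-ratios scaling (limma adjusted p = 0.111, 0.0622 and 0.0602). Leaving out control library 1 or control library 2 gave log2 fold changes of 1.29 and 1.17. When either transgenic library was left out, or with the filter on the mean over all 4 libraries, Tnnt2 was not tested. Tnnt2 was tested only because both transgenic values reached 1 RPKM, which favours a difference.

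Among genes of embryonic and regenerating fibres 4 of 7 tested rose, against 6.25% of all tested genes, and 0 fell. Their median log2 fold change was 1.52. Myl4, a myosin light chain of embryonic muscle and of the atria, rose from 2.11 and 3.44 to 52.2 and 96.8 RPKM (log2 fold change 4.28, adjusted p = 0.00863). Myog, the myogenic factor of differentiation, rose from 4.30 and 3.30 to 9.87 and 16.4 RPKM (log2 fold change 1.53, adjusted p = 0.0373). Ncam1, a cell adhesion molecule of denervated and regenerating fibres, and Nes, the intermediate filament nestin, rose with log2 fold changes of 1.52 and 1.94 (adjusted p = 0.0215 and 0.0154). Ncam1 was under 1 RPKM in both controls and passed the filter only through the transgenic libraries. Without control library 2 none of the 4 passed (limma adjusted p = 0.0641 for Myl4, 0.151 for Myog, 0.102 for Ncam1 and 0.0757 for Nes), and in that fit Thbs1 was the only gene of 9857 to pass. Without control library 1 the calls of Myog and Ncam1 were lost (adjusted p = 0.0664 and 0.0545). With no filter on low values Myog, Ncam1 and Nes did not pass (adjusted p = 0.0917, 0.0676 and 0.0561), nor did Myog with median-of-ratios scaling or by limma-voom (adjusted p = 0.0533 and 0.0504). Myl4, Myog, Ncam1 and Nes were all higher in transgenic library 2 than in transgenic library 1, as Tnnt2 was. The neonatal and embryonic myosins Myh8 and Myh3 had log2 fold changes of -0.44 and 0.28 (adjusted p = 0.214 and 0.454), and were picked here with their values known. Myh8 was below both controls in both transgenic libraries, at 320 and 358 against 419 and 501 RPKM. Tnni3, the cardiac troponin I, was between 0.0682 and 0.327 RPKM in all 4 libraries and was not tested.

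Partners of troponin and tropomyosin on the thin filament moved in both directions. Of 20 listed genes 18 were tested, 1 rose and 1 fell, against 6.25% and 1.22% of all tested genes. Their median log2 fold change was -0.33. By limma-voom, which used median-of-ratios scaling, 5 passed, all of them lower, against 469 lower among all 10015 tested genes. Actc1, the cardiac alpha-actin, fell from 649 and 585 to 71.4 and 129 RPKM (log2 fold change -2.67, adjusted p = 0.0174). Lmod2, a leiomodin that elongates thin filaments at their pointed end, rose from 36.7 and 46.7 to 87.8 and 84.4 RPKM (log2 fold change 1.04, adjusted p = 0.0376). Neb, the giant protein nebulin that runs along the filament, was at 116 and 110 RPKM in control muscle and at 68.4 and 65.2 RPKM in the transgenics (log2 fold change -0.75, adjusted p = 0.0523). Capza2, a subunit of the capping protein at the barbed end, had a log2 fold change of -0.85 (adjusted p = 0.0522). Acta1, the main skeletal actin and the partner that all fibres share, was chosen after its values were seen and had a log2 fold change of -0.34 (adjusted p = 0.363). With no filter on low values the adjusted p of Actc1 and Lmod2 were 0.0619 and 0.0778, so neither passed. Leaving out control library 2 ended the call of Actc1 (adjusted p = 0.0825). For Lmod2 the call ended on leaving out control library 1, control library 2 or transgenic library 1 (adjusted p = 0.069, 0.0841 and 0.0608) and with median-of-ratios scaling or by limma-voom (adjusted p = 0.0805 and 0.052).

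Among 17 regulators of fibre type 14 were tested, 1 rose and 0 fell, against 6.25% and 1.22% of all tested genes. Their median log2 fold change was -0.25. By limma-voom 2 passed, Rcan1, which was higher, and Eya1, which was lower (adjusted p = 0.0273 and 0.03), against 10.3% of tested genes. Rcan1, a calcineurin inhibitor whose gene is also a calcineurin target, rose from 10.8 and 9.19 to 21.7 and 25.8 RPKM (log2 fold change 1.17, adjusted p = 0.0264, 0.11 without control library 2, and 0.0631 when low values were not filtered). Eya1, a coactivator of homeodomain factors in fast fibres, and Tbx15, a T-box factor of fast glycolytic fibres, had log2 fold changes of -0.49 and -0.62 (adjusted p = 0.0951 and 0.0919). Esrrg, an oestrogen-related receptor of oxidative fibres, had a log2 fold change of 0.61 (adjusted p = 0.113), and passed the filter only through the transgenic libraries. Macrophage markers were higher in both transgenic libraries, 8 of 9 tested rose (0 without control library 2), and their summed level was 53.2 to 83.2 RPKM in the controls and 243 to 268 RPKM in the transgenics. Fibroblast markers summed to 179 to 344 RPKM in the controls and to 390 to 401 RPKM in the transgenics, with 0 of 6 past the test by limma or limma-voom and 1 at an unadjusted p under 0.05. Among the macrophage markers Cd68 was under 1 RPKM in both controls and passed the filter only through the transgenic libraries. Over all tested genes 6.25% rose. The part of macrophages and fibroblasts in the lower values of the fast troponins was not tested.

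Levels can be set side by side between genes only per length, and the deposited RPKM divide by gene models that are 0.814 to 9.25 times the exonic length of the members in GENCODE M21. The order below therefore uses reads scaled to exonic kilobases and library size, computed from the recovered reads. In the controls Tnnt3 was highest at 9971 and 13016 on this scale, Tnnc2 followed at 5659 and 9420, and Tnni2 at 3914 and 5826. Tnnc2 and Tnni2 overlapped in the controls, while Tnnt3 lay above both. Tpm1 came next at 2726 and 2936, then Tpm2 at 987 and 1022. This order of the 5 abundant genes was the same in both transgenic libraries, where Tnnt3 was at 5339 and 6948 and Tpm2 at 1176 and 1322. By deposited RPKM the fast troponins came in the opposite order. In the controls Tnni2 was then at 4806 and 7155 RPKM, Tnnc2 at 3843 and 6397 RPKM and Tnnt3 at 1078 and 1407 RPKM. The order between genes thus depends on the length used. The recovered reads are those of the deposited gene models, which need not match these exons.

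The slow isoforms were far below on the exonic scale, with Tnnc1 at 99.5 and 189 and Tnnt1 at 72.2 and 113 in the controls, which overlapped. Tpm3 was at 39.5 and 44.5, Tnni1 at 15.9 and 18.6, and Tnnt2 at 0.453 and 0.226. In transgenic library 2 the range narrowed, with Tnnc1 at 16.9, Tnnt1 at 11.4, Tnni1 at 9.84, Tpm3 at 7.50 and Tnnt2 at 5.85. On the exonic scale the slow isoform made up 0.719% and 0.862% of troponin T (Tnnt1 of Tnnt1 and Tnnt3) in the controls, 1.77% in transgenic library 1 and 0.163% in transgenic library 2. On the deposited RPKM scale the same shares were 2.67%, 3.19%, 6.38% and 0.615%. The level of a share thus depends on the length used, and the order of the libraries does not.

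Outside the members, profiles over the 4 libraries were compared by the Euclidean distance of centred log2(RPKM + 1) values, among 2858 tested genes with a mean of at least 10 RPKM. Nearest to the mean profile of the slow troponins Tnnt1, Tnni1 and Tnnc1 were Lpl (distance 0.593), Slc27a1 (0.774), Lrg1 (0.793), Ldhb (0.857) and Hbb-b2 (0.962). Lpl, lipoprotein lipase, measured 99.1 and 126 RPKM in the controls and 152 and 39.7 RPKM in the transgenics, and Ldhb, the lactate dehydrogenase subunit of oxidative tissue, at 172, 162, 233 and 67.8 RPKM in the same order. Nearest to the fast troponins Tnnt3, Tnni2 and Tnnc2 were Rtn2 (0.123), Calm3 (0.127), Timm8b (0.154), Pdlim7 (0.165) and 2310002L09Rik (0.175). Calm3, a calmodulin gene, was at 157 and 233 RPKM without the transgene and 96.2 and 101 RPKM in the transgenics. With 4 libraries many genes can share a profile, so these distances are a description.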

How the data were processed

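Gene expression was measured by RNA-seq of total RNA from quadriceps. Reads were demultiplexed with bcl2fastq and aligned with TopHat to mm10, and edgeR was used, per the submitters' processing notes, which give no versions. The deposited table holds RPKM per gene and library, normalized by the authors to gene model length and mapped reads. It also holds the authors' mean signal per group and their p-value and adjusted p per gene. The strandedness of the libraries and how reads over several genes were counted are not given in the sources used here. Of the 23482 genes, 5713 had no read in any library, and 27 symbols written as dates were put back.

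Whole reads per gene were recovered from the RPKM and the group means (0 values further than 1e-06 from a whole read). The main test was limma 3.58.1 in R 4.3.3, as planned for RPKM values, on log2(RPKM + 1) for the 10015 genes that reached 1 RPKM in 2 or more libraries, with Benjamini-Hochberg adjustment over all of them and a threshold of 0.05. The fit was also run on simulated reads, with outcomes not given here, and no result above rests on that run. Alternatives were a pseudocount of 0.1, other filters and scalings, limma-voom on the recovered reads with median-of-ratios scaling, a replicate block and leaving out each library. The exonic lengths were added as an alternative after the data were seen. Named genes are all members, up to 4 with the smallest p from each other list (all, where 5 or fewer were tested), and the 5 nearest profiles to the slow and to the fast troponins. The members and lists were chosen with earlier results of these data known. Tables were handled in Python 3.11.15 with pandas 2.3.3, numpy 2.4.6 and matplotlib 3.10.9. Read numbers of 18815221 to 20053685 per library limit the precision for low genes such as Tnnt2.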

Additional observations from a re-analysis of the deposited data

How the results depend on the processing

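The 748 genes past the threshold (626 higher, 122 lower) were 146 with no filter on low values (135 higher, 11 lower), 1561 without Thbs1 in the library sizes (1458 higher, 103 lower) and 1705 at an adjusted p under 0.1 (1303 higher, 402 lower). Lower genes numbered 249 of 752 with median-of-ratios scaling and 469 of 1034 by limma-voom, which used the same scaling. With the replicate number as a block they numbered 64 of 561. Leaving out 1 library gave 1 to 680 genes, 1 to 583 higher and 0 to 156 lower, with 1 gene without control library 2. The members past the threshold numbered 0, but 1 each (Tnnt2) with a pseudocount of 0.1, without Thbs1 and by limma-voom, 4 at an adjusted p under 0.1, and 0 to 3 when 1 library was left out. Same-numbered libraries deviated together with a correlation of 0.0742, which does not pair them, and the block changed the call of no member. Of the other named genes it ended the calls of Lmod2, Myog and Atp2a1 (adjusted p = 0.0622, 0.0604 and 0.089) and added that of Fhl2 (adjusted p = 0.0351), and it changed no other. The transgenic minus control difference in the slow share of troponin I was 0.287 percentage points by RPKM and 0.75 by reads not divided by length. Log2 fold changes that reversed sign were uncalled before. Tnni1 was at -0.17 with median-of-ratios scaling and -0.19 by limma-voom. Leaving out 1 library at a time gave log2 fold changes of -2.75 to 0.084 for Tnnt1, -0.75 to 0.78 for Tnni1, -2.94 to 0.14 for Tnnc1, -2.21 to 0.36 for Tpm3, -0.0026 to 1.44 for Col1a1, -0.013 to 3.75 for Cidec, -0.16 to 3.39 for Cfd, -0.42 to 2.44 for Fabp4, -1.47 to 0.44 for Lpl, -1.23 to 0.82 for Lrg1, -1.29 to 0.48 for Ldhb and -1.19 to 7.1e-05 for Hbb-b2. The causes were not tested. Among the members depth limited Tnnt2 most in the controls, with 68 and 33 reads.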
